A study of Mus musculus with 12 samples.

Results

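The genes described here encode 10 enzymes of glutathione metabolism and antioxidant defense: Gclc, Gclm, Gss, Gsr, Gpx4, Prdx1, Txnrd1, Sod1, Sod2 and Cat. They were taken by gene symbol from the deposited tables, in which each of the 10 symbols is listed 1 time among 24562 genes. All 10 were among the 13943 genes with enough counts to be tested. RNA-Seq libraries came from 12 oocyte pools of untreated, unstimulated CD-1 mice, an outbred strain, and each pool held 18 to 45 oocytes isolated from antral follicles. The pools formed 4 cohorts of n = 3: postnatal day (PND) 13, PND 16 small (mice below 9 g), PND 16 large (mice of 9 g or more) and PND 40. No allele or treatment was part of the design, which asked which transcripts differ with age, body weight and the ability to complete meiosis. PND 13 and PND 16 small oocytes were grouped by the study as meiotically non-competent, and PND 16 large and PND 40 oocytes as competent. A body weight class stands in for competence at PND 16, and the labels give no measure of competence for the pools themselves.

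Glutathione is the most abundant small thiol of animal cells, and oocytes build up a store of it as they mature, which is later used when the sperm nucleus is remodeled. Glutamate-cysteine ligase, made of the catalytic subunit GCLC and the modifier subunit GCLM, joins glutamate to cysteine, and glutathione synthetase (GSS) adds glycine. Glutathione reductase (GSR) returns oxidized glutathione to its reduced form with NADPH, and glutathione peroxidase GPX4 spends it to reduce lipid peroxides. Peroxiredoxin 1 (PRDX1) reduces hydrogen peroxide with electrons from thioredoxin, which thioredoxin reductase 1 (TXNRD1) recharges. Superoxide dismutases turn superoxide into hydrogen peroxide, SOD1 mainly in the cytosol and SOD2 in the mitochondrial matrix, and catalase (CAT) breaks hydrogen peroxide down in peroxisomes.

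Many of these genes are textbook targets of NRF2, which binds antioxidant response elements together with small MAF proteins. Promoter windows of 300 bases (250 before and 50 after the start of the transcript) from RefSeq on GRCm38.p6 covered 8 of the 10 genes, all except Gclc and Gsr. The letters TGANNNNGC were searched on both strands, and the narrower TGACNNNGC, a subset of the former, was searched in the same way. The narrower motif was found in 4 of the 8 genes, and 14% of all 27025 genes with a window held it. Some genes had more than 1 window. Counted by window, 4 of the 13 windows of these 8 genes held it, against 12.4% of all 32851 windows. The wider motif was found in the same 4 genes and in 45% of all genes. These 4 matches are shown with 10 flanking bases because they let the same element be compared between a glutathione, 2 thioredoxin-linked and a superoxide dismutase gene, with the narrower match in capitals on the strand of the gene, where the motif reads as its reverse complement.
Gclm, chr3:122245413-122245441: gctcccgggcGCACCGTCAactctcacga
Prdx1, chr4:116685456-116685484: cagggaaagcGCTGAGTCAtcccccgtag
Txnrd1, chr10:82859104-82859132: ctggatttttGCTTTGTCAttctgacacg
Sod1, chr16:90220696-90220724: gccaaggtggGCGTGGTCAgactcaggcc
Relative to the RefSeq transcript start of each window, the matches began at position -134 in Gclm, -133 in Prdx1, -92 in Txnrd1 and -56 in Sod1. These starts can differ from the gene starts given below. For Txnrd1 the window belongs to a start inside the gene, which begins at 82833951. A match of letters is a description of the sequence, and binding of any factor was not measured here.

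Pools held between 17671193 and 27418358 counts. Levels are given as counts scaled to library size (CPM) with trimmed mean of M values (TMM) factors, so that 1 count corresponded to between 0.0367 and 0.0593 CPM. The 12 oocyte markers summed to between 15295 and 19727 CPM in every pool, far above the other 3 marker lists. The 12 granulosa and cumulus cell markers all had counts in each pool. They summed to between 474 and 512 CPM in PND 16 small replicate 2 and PND 13 replicates 1 and 3. In the other 9 pools they summed to between 218 and 358 CPM. A large part of the sum in those 9 pools came from Nr5a2 (87.9 to 134 CPM) and Esr2 (83.5 to 148 CPM). In bulk pools, fewer cells of a type and less RNA per cell cannot be told apart. The 8 theca and stroma markers summed to between 5.25 and 44.8 CPM, and the 8 blood and immune cell markers to at most 2.88 CPM, with all 4 hemoglobin genes at a count of 0 in all pools.

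Scaled to gene length, the 10 enzymes differed widely in level. Prdx1 was the highest, with a mean of 59.3 CPM per kilobase of exon over the 12 pools, followed by Sod1 at 22.9 and Txnrd1 at 14.5. Gclm (8.53 CPM per kilobase) and Gclc (5.91 CPM per kilobase) came next, with overlapping pools, whereas the pools of Prdx1, Sod1 and Txnrd1 did not overlap each other or those of Gclm. Gsr, Sod2 and Gpx4 lay close together, at 2.73, 2.50 and 2.42 CPM per kilobase, and their pools overlapped. Gss (0.596 CPM per kilobase) and Cat (0.514 CPM per kilobase) were the lowest, and their pools overlapped as well. The 2 subunits of glutamate-cysteine ligase thus stood well above glutathione synthetase, the enzyme of the next step. With the longest annotated transcript as the length, Txnrd1 reached 28.4 CPM per kilobase and passed Sod1, and Sod2 (4.27) and Gpx4 (4.18) passed Gsr (2.81). For Sod1 (3970 bases) and Cat (2613 bases) the 2 lengths were the same, so their levels did not change. Which transcripts the oocytes held was not measured, so the order rests on annotated lengths.

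**Figure D1:**
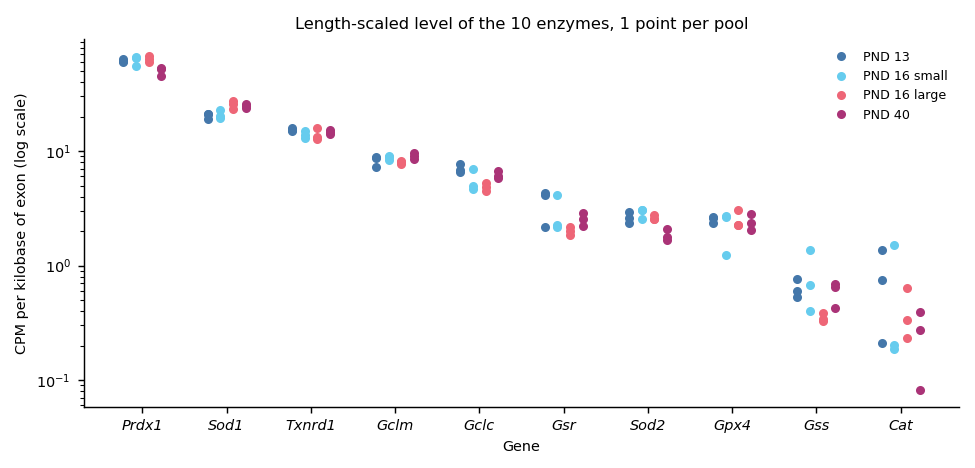
Level of each enzyme per kilobase of exon (y axis, CPM per kilobase, log scale) with 1 point per pool, colored by cohort, and the genes ordered by their mean over the 12 pools. Prdx1 (mean 59.3 CPM per kilobase) lies at the top and Gss (0.596) and Cat (0.514) at the bottom, and the pools of Cat and Gss are spread more widely than those of the abundant enzymes.

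Across the 4 cohorts, 4 of the 10 enzymes passed an adjusted p of 0.05 in at least 1 comparison, all but 1 of their differences being smaller than 1.5-fold. In single comparisons up to 33.1% of all genes tested passed. The share passing in at least 1 comparison was not computed and cannot be below that value, so 4 of 10 is not read as an excess. Sod1 was higher in competent than in non-competent oocytes, by 1.22-fold. Sod2 and Prdx1 were lower at PND 40 than in every other cohort, by 1.42- to 1.57-fold for Sod2 and by 1.23- to 1.27-fold for Prdx1. Gclc was 1.44-fold lower in PND 16 large than in PND 13 oocytes. For the other 6 genes no comparison passed. A gene was called differentially expressed when its adjusted p (edgeR's quasi-likelihood test, Benjamini-Hochberg adjustment over the 13943 genes) was at most 0.05 and its change at least 1.5-fold. Because the comparisons share cohorts, and competent vs. non-competent oocytes regroups the same 12 pools, they are not independent of each other.

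By that rule 1 of the 10 enzymes was called, Sod2, and only in PND 40 vs. PND 16 small, where 17.2% of all genes tested were called. In the other comparisons 0 of 10 were called by edgeR. Among all genes tested, 0.373% were called between PND 16 small and PND 13, 13.3% between PND 16 large and PND 13, and 18.9% between PND 40 and PND 13. The share was 6.19% in PND 16 large vs. PND 16 small, 3.66% in PND 40 vs. PND 16 large and 15% in competent vs. non-competent oocytes. DESeq2 called 1 enzyme in PND 16 large vs. PND 13 (Gsr), where it called 15.6% of all genes tested, and 1 in PND 16 large vs. PND 16 small (Gss), where it called 8.43%. It called the same number as edgeR in the other comparisons.

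Without the fold-change criterion, none of the 10 enzymes passed when PND 16 small was set against PND 13 (0.925% of all genes). Relative to PND 13, 2 passed in PND 16 large (25.6% of genes tested) and 3 at PND 40 (33.1%). In PND 16 large vs. PND 16 small 1 enzyme passed (12.3%), and in PND 40 vs. PND 16 large 2 passed (6.83%). In PND 40 vs. PND 16 small 3 passed (30.2%), and in competent vs. non-competent oocytes 1 passed (30.7%). An unadjusted p under 0.05 was reached by 1, 4, 3, 2, 3, 3 and 3 enzymes in these 7 comparisons, in the same order, and by 19.2%, 37.6%, 43.1%, 28.2%, 22.4%, 40.9% and 42.1% of all genes tested. The median log2 fold change of the 10 enzymes ranged from -0.15 in competent vs. non-competent oocytes to 0.02 in PND 40 vs. PND 16 large, and that of all genes tested from -0.04 to 0.004.

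**Figure D2:**
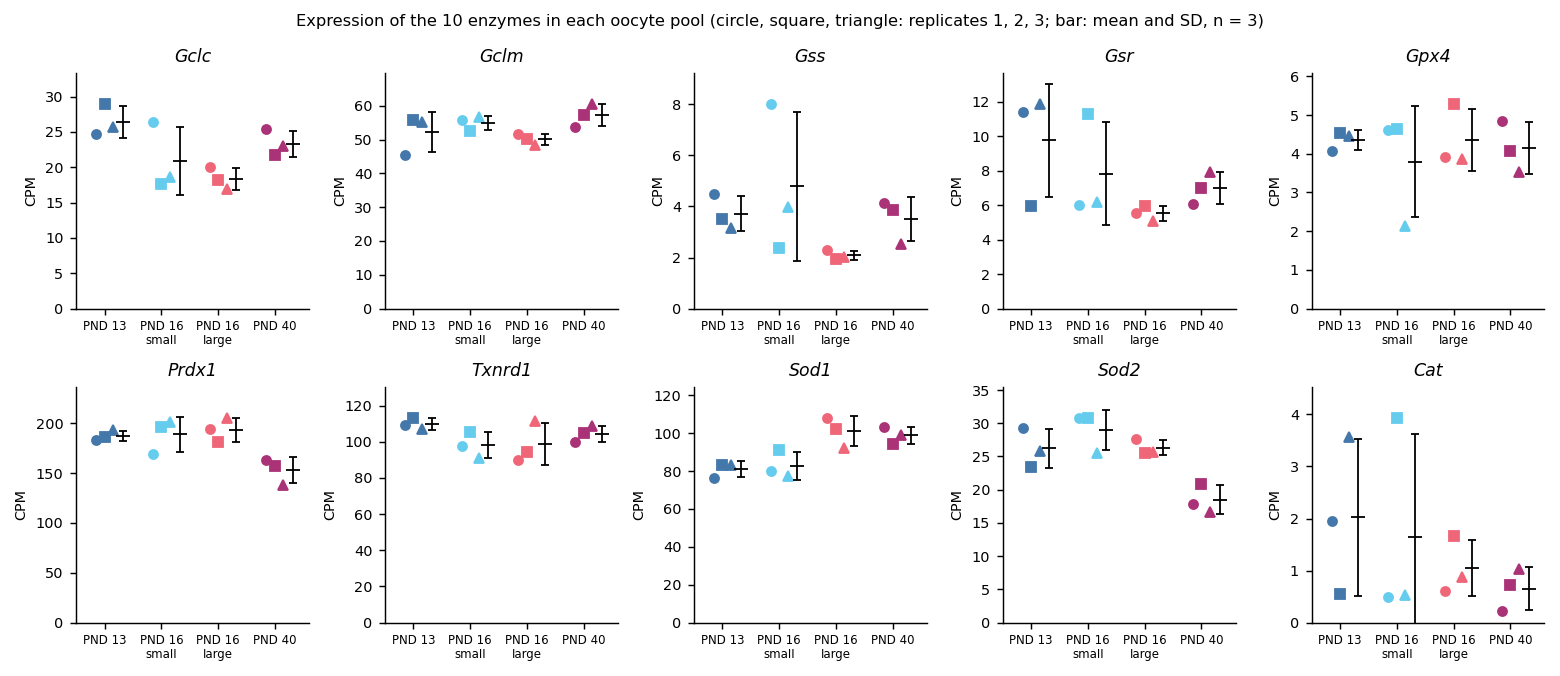
Expression (y axis, CPM) of each of the 10 enzymes in each oocyte pool by cohort (x axis), with circles, squares and triangles for replicates 1, 2 and 3 and bars for the mean and SD (n = 3), where the lower bar of Cat in PND 16 small is cut at 0. Sod1 is higher in both right-hand cohorts, Sod2 and Prdx1 are lowest in the 3 PND 40 pools, and Gsr and Cat are split within PND 13 and PND 16 small.

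The genes of glutathione synthesis were examined first. Gclc (GRCm38 chromosome 9, 77754535 to 77794485) measured 24.7, 29.0 and 25.7 CPM in the PND 13 pools and 26.3, 17.6 and 18.7 CPM in PND 16 small. It measured 20.0, 18.2 and 16.96 CPM in PND 16 large and 25.3, 21.7 and 23.0 CPM at PND 40. All 3 PND 16 large pools were below all 3 PND 13 pools, whereas PND 16 small was split, with replicate 1 at the level of PND 13 and the others near PND 16 large. In PND 16 large, Gclc fell by 0.53 on the log2 scale relative to PND 13 (SE 0.15, adjusted p = 0.0226), which is short of 1.5-fold. It was called with the granulosa marker level as a covariate (-0.61, adjusted p = 0.00483), with total counts alone (-0.62, adjusted p = 0.0114) and without PND 16 large replicate 1 (-0.60, adjusted p = 0.0419). The adjusted p was above 0.05 without PND 13 replicate 2 (0.0628), PND 13 replicate 3 (0.0558), PND 16 large replicate 2 (0.0662) or PND 16 large replicate 3 (0.0834), with log2 differences of -0.47 to -0.55. Without the 3 pools highest in granulosa markers the log2 difference was -0.65 (adjusted p = 0.0641), larger than with all pools, and 1 PND 13 pool was left. At PND 40 the mean Gclc level was 23.3 ± 1.85 CPM (SD, n = 3), and it did not pass the test against PND 16 large (log2 difference 0.35, 95% interval 0.05 to 0.64 before adjustment, adjusted p = 0.196). It passed in a model of these 2 cohorts alone (0.34, adjusted p = 0.0485).

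Gclm (chromosome 3, 122245557 to 122270732) was among the steadiest of the 10 genes. It measured 45.4, 55.9 and 55.2 CPM at PND 13, 55.8, 52.6 and 56.6 CPM in PND 16 small, 51.7, 50.2 and 48.3 CPM in PND 16 large and 53.9, 57.4 and 60.6 CPM at PND 40. The cohorts overlapped, except that all PND 40 pools lay above all PND 16 large pools and all PND 16 small pools above all PND 16 large pools. The difference between competent and non-competent oocytes was 0.002 on the log2 scale, with a 95% interval of -0.15 to 0.16, and no comparison passed the test.

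Gss (chromosome 2, 155563181 to 155592810, minus strand) measured 4.49, 3.52 and 3.15 CPM at PND 13 and 8.02, 2.37 and 3.97 CPM in PND 16 small. In PND 16 large it measured 2.29, 1.93 and 2.03 CPM, and at PND 40 4.12, 3.86 and 2.54 CPM. The 3 PND 16 large pools were the lowest of the 12, while PND 16 small ranged from 2.37 to 8.02 CPM. The log2 difference of PND 16 large vs. PND 16 small was -1.20 (SE 0.39, adjusted p = 0.06), so that it did not pass. It passed with DESeq2 (adjusted p = 0.0258), with the granulosa marker level as a covariate (0.0347), without the 3 pools highest in granulosa markers (0.0168) and without PND 16 small replicate 2 (0.0125). Without PND 16 small replicate 1, the highest pool at 8.02 CPM, the log2 difference was -0.60 and did not pass (adjusted p = 0.266). The exons of Gss overlap those of Acss2, which lies on the opposite strand, and the libraries were directional but the strand setting of the counting is not given in the sources used here. Acss2 was also highest in PND 16 small replicate 1, at 4.18 CPM, and lowest in PND 16 small replicate 2, at 0.237 CPM, and its part in the Gss values was not tested.

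Of the genes that recycle and spend glutathione, Gsr (chromosome 8, 33652523 to 33698163) measured 11.4, 5.98 and 11.9 CPM at PND 13 and 6.03, 11.3 and 6.17 CPM in PND 16 small. It measured 5.56, 5.96 and 5.06 CPM in PND 16 large and 6.05, 7.01 and 7.90 CPM at PND 40. The 3 high pools were the same 3 pools that were highest in granulosa markers, and the other 9 pools ranged from 5.06 to 7.90 CPM. Gsr did not pass the test in any comparison as fitted. Its largest difference was between PND 16 large and PND 13 (log2 difference -0.82, SE 0.29, adjusted p = 0.0544). Without these 3 pools that difference was -0.11, and in competent vs. non-competent oocytes it went from -0.49 to 0.05. Since these pools, all non-competent, are also the highest in Gsr itself, a smaller difference without them was fixed by their choice and is no test. With all 12 pools and the granulosa marker level as a covariate, the difference of PND 16 large vs. PND 13 was -0.51 (adjusted p = 0.0719). With this covariate it was -0.13 (adjusted p = 0.676) at PND 40 relative to PND 13. In competent vs. non-competent oocytes it was then -0.18 (adjusted p = 0.496). The covariate is the same marker sum on the log2 scale and sets the same 3 pools apart. A smaller difference with it is therefore no test either. The part of granulosa cells in the Gsr levels was not tested. Without PND 13 replicate 2, the pool of that cohort low in granulosa markers, Gsr was called in PND 16 large vs. PND 13 (-1.09, adjusted p = 0.0111), as well as at PND 40 relative to PND 13 (-0.76, adjusted p = 0.0422). It was also called in PND 16 large vs. PND 13 without PND 16 small replicate 1 (adjusted p = 0.0401), replicate 2 (0.0265) or replicate 3 (0.0458), and with total counts alone (0.0411).

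Gpx4 (chromosome 10, 80047166 to 80056439) measured 4.06, 4.53 and 4.46 CPM at PND 13, 4.62, 4.65 and 2.14 CPM in PND 16 small, 3.93, 5.29 and 3.86 CPM in PND 16 large and 4.85, 4.06 and 3.53 CPM at PND 40. Apart from PND 16 small replicate 3, the pools of all cohorts overlapped. The difference between competent and non-competent oocytes was 0.06 on the log2 scale (95% interval -0.35 to 0.46), and no comparison passed. Of the 50-base windows of its longest transcript, 61.7% also occur in transcripts of other genes, mainly the pseudogene Gpx4-ps2, so its level is uncertain where reads that match several places were set aside. The corresponding share was 10.9% for Prdx1 and at most 4.24% for the other 8 genes.

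Prdx1 (chromosome 4, 116685544 to 116700822) measured 183, 186 and 193 CPM at PND 13, 169, 196 and 201 CPM in PND 16 small and 194, 181 and 205 CPM in PND 16 large. At PND 40 it measured 163, 157 and 138 CPM, below every one of the other 9 pools. Prdx1 fell by 0.29 on the log2 scale relative to PND 13 (SE 0.084, adjusted p = 0.0165), by 0.34 relative to PND 16 large (adjusted p = 0.0292) and by 0.31 relative to PND 16 small (adjusted p = 0.015). These changes were under 1.5-fold. Among the 3 younger cohorts the differences were between 0.01 and 0.05 on the log2 scale. Leaving out PND 40 replicate 3, the lowest pool, raised the adjusted p to 0.0866, 0.13 and 0.0789, respectively. The adjusted p was also above 0.05 against PND 13 without PND 13 replicate 3 (0.0597) and against PND 16 large without PND 16 large replicate 1 (0.085), PND 16 large replicate 3 (0.123) or PND 40 replicate 2 (0.0745). Txnrd1 (chromosome 10, 82833951 to 82897712), which acts in the same electron relay, measured 109, 113 and 107 CPM at PND 13 and 97.6, 105 and 91.2 CPM in PND 16 small. It measured 89.8, 94.2 and 112 CPM in PND 16 large and 99.6, 105 and 109 CPM at PND 40, and passed in no comparison. Its log2 difference between competent and non-competent oocytes was -0.04 (95% interval -0.18 to 0.11).

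The 2 superoxide dismutases showed different patterns. Sod1 (chromosome 16, 90220754 to 90226329) measured 76.2, 83.5 and 83.2 CPM at PND 13 and 79.9, 91.3 and 77.5 CPM in PND 16 small. It measured 108, 102 and 92.4 CPM in PND 16 large and 103, 94.3 and 99.0 CPM at PND 40. All 6 competent pools lay above all 6 non-competent pools, although the gap between the nearest pools, 92.4 and 91.3 CPM, was narrow. Sod1 averaged 99.9 ± 5.89 CPM in competent and 81.9 ± 5.44 CPM in non-competent oocytes (SD, n = 6 each). The log2 difference was 0.29 (SE 0.064, 95% interval 0.16 to 0.41, adjusted p = 0.00396), a change under 1.5-fold. It passed in all 21 alternatives, with log2 differences from 0.25 to 0.32.

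In the pairwise comparisons, Sod1 rose in PND 16 large relative to PND 13 (log2 difference 0.32, adjusted p = 0.0173) and PND 16 small (0.28, adjusted p = 0.0497). At PND 40 it rose relative to PND 13 (0.29, adjusted p = 0.0226) and PND 16 small (0.25, adjusted p = 0.0426). PND 40 and PND 16 large did not differ beyond their spread (-0.03, 95% interval -0.20 to 0.14). These passes were close to the threshold, and each was lost in several of the 21 alternatives, namely in 5 alternatives for each comparison with PND 13, in 13 for PND 16 large vs. PND 16 small and in 11 for PND 40 vs. PND 16 small. Over these alternatives the adjusted p rose to at most 0.151 for PND 16 large and 0.183 for PND 40 against PND 13, and to at most 0.199 for PND 16 large and 0.139 for PND 40 against PND 16 small. Against PND 13, the pools whose omission ended a pass were PND 13 replicate 1 in both comparisons, PND 16 large replicates 1 and 2, and PND 40 replicates 1 and 3. Against PND 16 small, a pass was lost without 9 of the 12 pools in turn for PND 16 large (all except PND 13 replicate 2, PND 16 large replicate 3 and PND 16 small replicate 2) and without 7 for PND 40 (PND 16 small replicates 1 and 3, PND 16 large replicates 1 and 2 and all 3 PND 40 replicates). With total counts in place of TMM factors, which moved the median of all genes to -0.13 in PND 16 large vs. PND 13, the Sod1 difference there was 0.22 (adjusted p = 0.0905).

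Sod2 (chromosome 17, 13006846 to 13040063) measured 29.3, 23.5 and 25.9 CPM at PND 13, 30.8, 30.8 and 25.6 CPM in PND 16 small and 27.6, 25.6 and 25.7 CPM in PND 16 large. At PND 40 it measured 17.9, 20.9 and 16.7 CPM. All 3 PND 40 pools were below each of the other 9 pools, and the 3 younger cohorts overlapped. Sod2 averaged 18.5 ± 2.15 CPM at PND 40 and 29.0 ± 3.01 CPM in PND 16 small (SD, n = 3 each), and fell by 0.65 on the log2 scale between them (SE 0.13, 95% interval -0.91 to -0.40, adjusted p = 0.00216). Relative to PND 13 it fell by 0.50 (adjusted p = 0.00889) and relative to PND 16 large by 0.51 (adjusted p = 0.032), both short of 1.5-fold. The latter 2 changes passed 1.5-fold without PND 40 replicate 2 (-0.60 and -0.61), and the change from PND 13 also without PND 13 replicate 2 (-0.60). The difference from PND 16 small kept an adjusted p under 0.05 in all 21 alternatives, but without PND 40 replicate 3 it was -0.58 (adjusted p = 0.0144) and below 1.5-fold. The difference from PND 16 large lost its pass without PND 16 large replicate 1 (adjusted p = 0.109), replicate 2 (0.0734) or replicate 3 (0.0931) and without PND 40 replicate 1 (0.115) or replicate 3 (0.136). The summed oocyte markers were also lower at PND 40, at 15295 to 15913 CPM against 16573 to 19727 CPM in the other cohorts. The sum does not stand for each marker. The median log2 fold change of the 12 markers at PND 40 was -0.07 against PND 13 and -0.06 against PND 16 large. Against PND 16 small it was 0.14, with Mos called higher and Zp2 and Nlrp5 lower. The part of the oocyte markers in the lower Sod2 and Prdx1 levels was not tested.

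**Figure D3:**
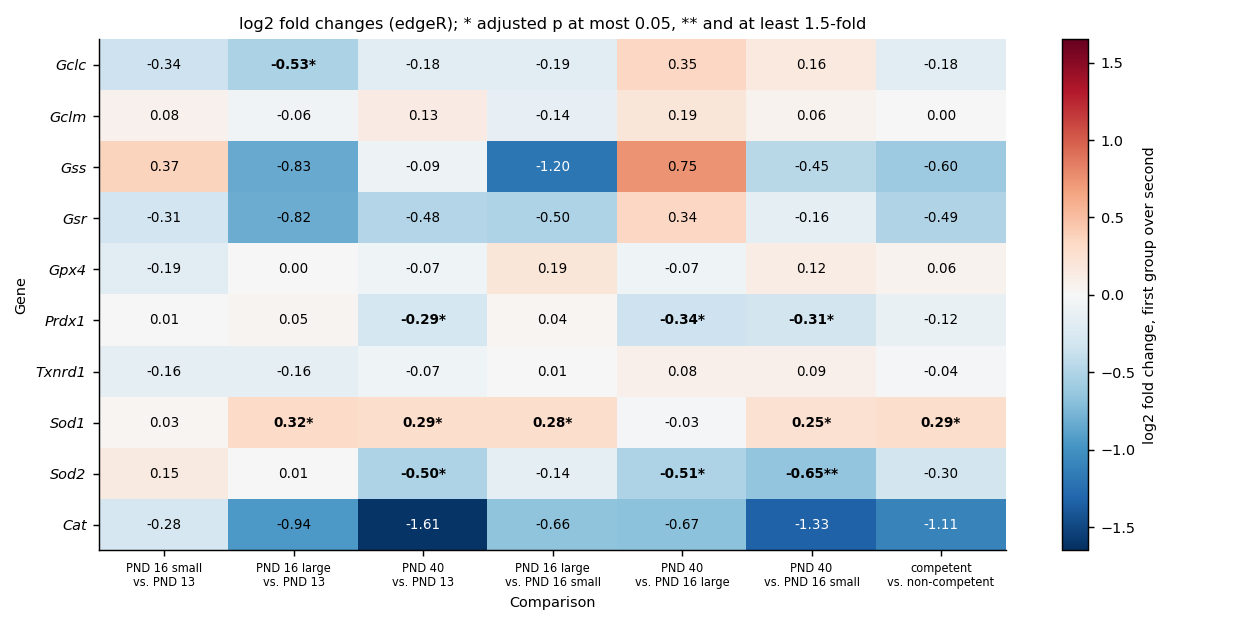
Log2 fold change (color and printed value, first group over second) of each enzyme (rows) in each of the 7 comparisons (columns), with 1 asterisk for an adjusted p of at most 0.05 and 2 where the change was also at least 1.5-fold. Sod1 is positive in the comparisons of competent with non-competent cohorts, Sod2 and Prdx1 are negative in the 3 comparisons of PND 40, and the large values of Cat and Gss carry no asterisk.

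Cat (chromosome 2, 103453849 to 103485160, minus strand) was measured from few reads, between 5 and 87 counts per pool. It measured 1.96, 0.547 and 3.56 CPM at PND 13 and 0.486, 3.93 and 0.534 CPM in PND 16 small. It measured 0.614, 1.66 and 0.876 CPM in PND 16 large and 0.214, 0.717 and 1.03 CPM at PND 40. The 3 highest pools were again the 3 pools highest in granulosa markers, at 1.96 to 3.93 CPM, and the other 9 pools ranged from 0.214 to 1.66 CPM. The log2 difference of PND 40 vs. PND 13 was -1.61 with an SE of 0.89 (adjusted p = 0.182), and that of competent vs. non-competent oocytes was -1.11 (95% interval -2.27 to 0.06, adjusted p = 0.172). A difference in Cat was therefore not detectable with these pools. With the granulosa marker level as a covariate, these 2 differences were -0.42 (adjusted p = 0.663) and 0.05 (adjusted p = 0.956), respectively. Without these 3 pools, which are all non-competent, the competent vs. non-competent difference was 0.71, of the opposite sign. This follows from leaving out the highest Cat values and is no test. The covariate sets the same 3 pools apart, so the smaller differences with it are no test either.

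Of the 12 granulosa and cumulus cell markers whose sum chose these 3 pools, 7 (Amh, Amhr2, Foxl2, Fshr, Inha, Inhba and Hsd17b1) were higher in each of them than in any of the other 9 pools. Amh, the hormone made by granulosa cells of growing follicles, was at 30.3 to 33.5 CPM in the 3 pools and 0.389 to 10.1 CPM in the others, and Inha, the inhibin alpha subunit, at 97.1 to 143 CPM against 2.34 to 20.7 CPM. The other 5 markers, Cyp19a1, Kitl, Nr5a2, Esr2 and Cyp11a1, overlapped between the 3 pools and the other 9. Nr5a2 was at 118 to 146 CPM in the 3 pools and Esr2 at 74.2 to 125 CPM. The sum, also used as the covariate, therefore mixes markers of unlike pattern. In PND 40 vs. PND 13, Esr2 and Cyp11a1 were called higher and Fshr and Kitl lower (6.31% and 12.6% of all genes). Sod1 passed in competent vs. non-competent oocytes without these 3 pools (log2 difference 0.32, adjusted p = 0.0146), and Sod2 in PND 40 vs. PND 16 small (-0.61, adjusted p = 0.00972). Without them 1 PND 13 pool was left, which is assumed to vary like the pools of the other cohorts. Against it the log2 difference of Sod1 was 0.25 at PND 40 (adjusted p = 0.183) and 0.28 in PND 16 large (adjusted p = 0.151), near the 0.29 and 0.32 of all pools. At PND 40 the difference of Prdx1 from PND 13 was -0.28 (adjusted p = 0.155) and from PND 16 small -0.27 (adjusted p = 0.061), near the -0.29 and -0.31 of all pools. The difference of Sod2 from PND 13 was smaller, -0.34 (adjusted p = 0.231) against -0.50.

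**Figure D4:**
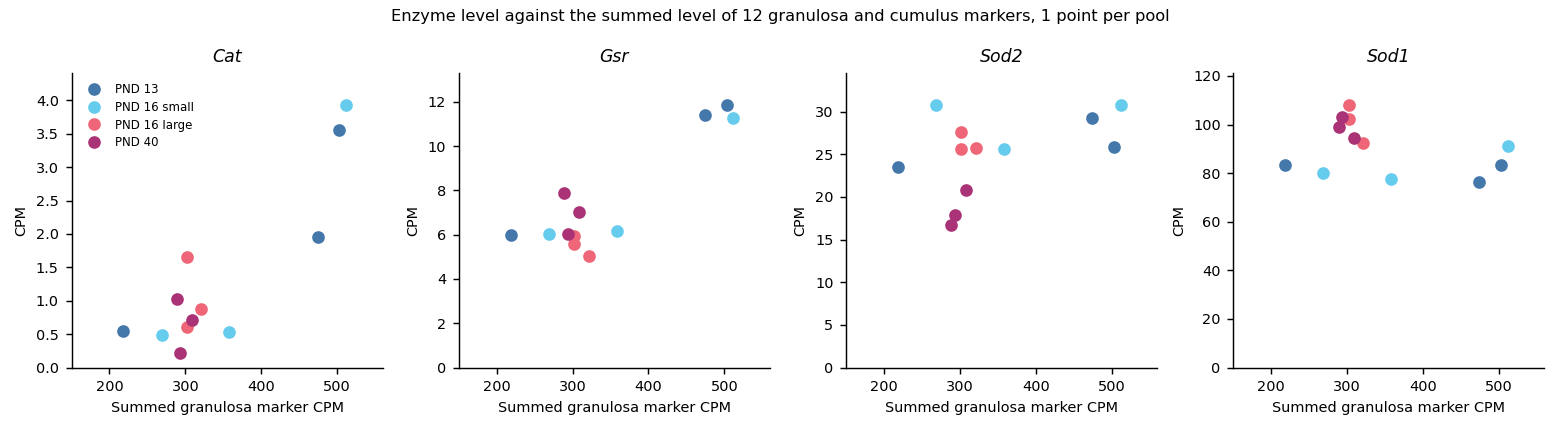
Level of Cat, Gsr, Sod2 and Sod1 (y axis, CPM) against the summed level of 12 granulosa and cumulus cell markers (x axis, CPM), with 1 point per pool, colored by cohort. The 3 pools at 474 to 512 CPM of markers hold the highest Cat and Gsr levels, while Sod1 and Sod2 in these pools overlap the other pools.

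The genes around the 10 enzymes were described through 7 lists of 123 genes, of which 106 were tested. For each list, the first comparison given is the one with the most called genes of the 7 comparisons, or tied for it. Each such share is the highest of 7 for its list, whereas that of all genes is not chosen in this way. Among 33 tested glutathione peroxidases, glutathione transferases and genes of glutathione turnover, 2 were called higher and 6 lower in PND 40 vs. PND 13 (median log2 fold change -0.08, against 0.004 for all genes). Of all genes tested, 6.31% were called higher and 12.6% lower in that comparison. Gsto2, an omega-class transferase, measured 9.87, 11.1 and 9.04 CPM at PND 40 and 3.64, 1.75 and 3.38 CPM in PND 16 small without overlap, a rise of 1.77 on the log2 scale (SE 0.27, adjusted p = 0.00041). Gpx6, a selenium-independent peroxidase in rodents, fell by 0.72 in PND 40 vs. PND 13 (adjusted p = 0.0298), and Gstt2, a theta-class transferase, by 0.67 (adjusted p = 0.00344). Chac1, which degrades glutathione and was named after its values were seen, measured 6.40, 6.41 and 6.35 CPM at PND 13 and 8.36, 4.69 and 5.10 CPM in PND 16 small. It measured 2.54, 2.45 and 3.503 CPM in PND 16 large and 1.97, 2.91 and 2.39 CPM at PND 40, so that all 6 competent pools were below all 6 non-competent pools (log2 difference -1.24, SE 0.20, adjusted p = 0.000401).

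Of 7 tested genes of cysteine supply, 2 were called higher and 1 lower in PND 40 vs. PND 13 (6.31% and 12.6% of all genes), and the same 2 were called higher in PND 40 vs. PND 16 large (2.34% of all genes). These were Cth and Slc1a1, which were named after their values were seen. Cth, the enzyme that releases cysteine from cystathionine, measured 8.24, 7.61 and 5.99 CPM at PND 40 and 3.72, 2.84 and 3.54 CPM in PND 16 large (log2 difference 1.11, adjusted p = 0.037). Slc1a1, a glutamate and cysteine transporter, measured 7.03, 3.38 and 5.44 CPM at PND 40 and 0.573, 1.70 and 0.836 CPM in PND 16 large (2.34, adjusted p = 0.0198). Neither gene overlapped between these cohorts. Of 13 tested genes on a list of NADPH supply pathways, 2 were called higher and 1 lower in PND 40 vs. PND 16 small, a share of 23.1% near the 17.2% of all genes called there. The 2 were H6pd, which forms NADPH in the endoplasmic reticulum (log2 difference 0.74, adjusted p = 0.0132), and Mthfd1l, a mitochondrial folate enzyme listed for its pathway (0.61, adjusted p = 0.00517). The gene called lower was Pgls, of the pentose phosphate pathway, also named after its values were seen (-1.58, adjusted p = 0.000664).

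Of 14 tested NRF2 regulators and targets, 1 was called higher and 2 lower in PND 40 vs. PND 13, and 3 were called lower in PND 40 vs. PND 16 small. These shares of 21.4% each were near those of all genes, 18.9% and 17.2%. Mafk, a small MAF partner of NRF2, measured 15.9, 13.1 and 13.4 CPM at PND 13 and 10.5, 11.2 and 14.2 CPM in PND 16 small. It measured 7.65, 9.35 and 8.32 CPM in PND 16 large and 7.89, 7.33 and 7.13 CPM at PND 40, and was lower in each competent pool than in each non-competent pool (log2 difference -0.72, SE 0.13, adjusted p = 0.001). Bach1, a repressor at the same elements, fell by 0.66 in PND 40 vs. PND 16 small (adjusted p = 0.00172). Keap1, which holds NRF2 for degradation, measured 20.7, 14.4 and 18.1 CPM at PND 40 and 11.5, 8.60 and 9.51 CPM in PND 16 large (log2 difference 0.84, adjusted p = 0.049), with PND 13 and PND 16 small between 9.43 and 19.6 CPM. Of the 4 enzymes with the promoter match shown above, Sod1 rose and Prdx1 fell, and Gclm and Txnrd1 did not pass in any comparison.

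Among 16 tested peroxiredoxins, thioredoxins and related genes, 1 was called higher and 1 lower in PND 40 vs. PND 13, a share of 12.5% below the 18.9% of all genes. The lower was Prdx4, the peroxiredoxin of the endoplasmic reticulum (log2 difference -0.73, adjusted p = 0.045), and mitochondrial thioredoxin Txn2 was called higher in PND 40 vs. PND 16 small (0.60, adjusted p = 0.0025). Of 7 tested genes of selenoprotein synthesis, which GPX4 and TXNRD1 depend on, 2 were called higher and 1 lower in PND 40 vs. PND 16 small, where 6.89% of all genes were called higher and 10.3% lower. Sepsecs, which makes selenocysteine on its tRNA, and Trnau1ap, a protein bound to that tRNA, rose by 0.66 and 0.96 on the log2 scale (adjusted p = 0.00884 and 0.00759). Sephs1 fell by 0.78 (adjusted p = 0.00408). Of 16 tested genes of peroxisome biogenesis, 1 was called higher and 3 lower in PND 40 vs. PND 13, against 6.31% and 12.6% of all genes. Pex6, part of the complex that recycles the import receptor PEX5, measured 20.7, 19.3 and 22.9 CPM at PND 13 and 4.203, 5.38 and 7.17 CPM at PND 40 (log2 difference -1.91, SE 0.26, adjusted p = 0.000192). Pex5 itself fell by 1.01 (adjusted p = 0.00823) and Pex11a, which promotes peroxisome division, was higher by 0.61 (adjusted p = 0.0436). In PND 16 small, Pex5 was split, at 75.1, 37.5 and 35.9 CPM.

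**Figure D5:**
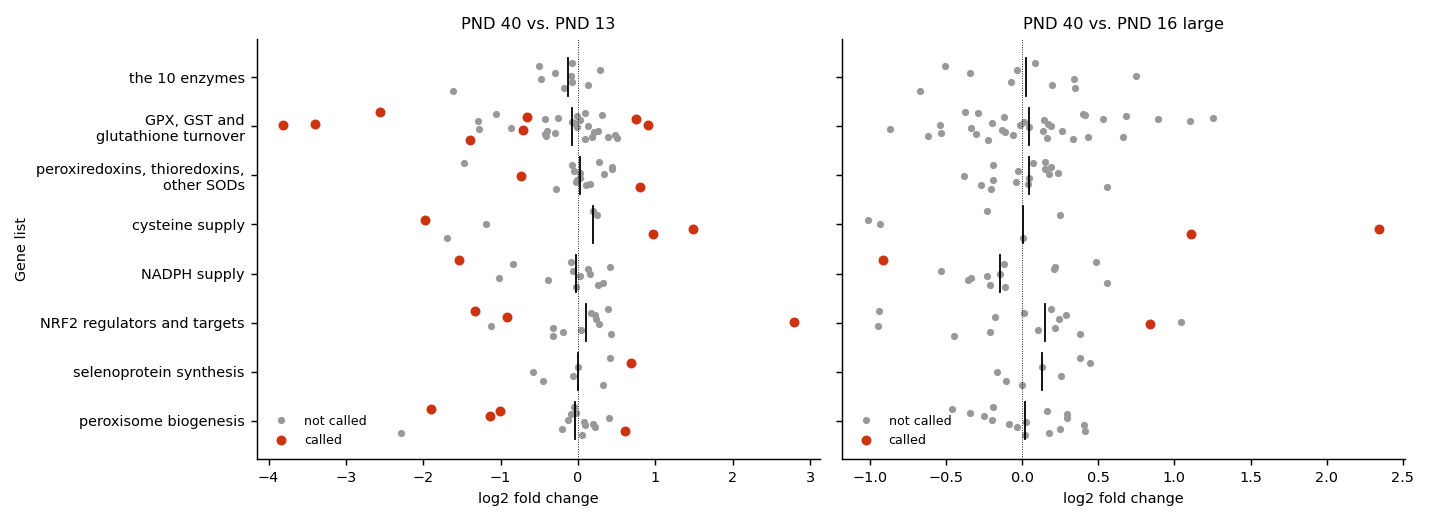
Log2 fold change (x axis) of each tested gene in the 10 enzymes and the 7 lists (rows) for PND 40 against PND 13 (left) and against PND 16 large (right), with red points for genes called differentially expressed and vertical bars for the median of a list. The medians lie close to 0, and the called genes fall on both sides.

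For the 3 enzymes with the widest range of cohort means, Cat, Gss and Gsr, the genes with the most similar pattern over the 12 pools were sought by the root mean square difference of log2 CPM centred on each gene's mean. The nearest genes to Cat were Apobec3 (0.396), Pbxip1 (0.483) and Ehd2 (0.488), against a median of 1.14 over all genes tested. The nearest to Gss were Map4k3 (0.286), Synj2 (0.290) and Zfp408 (0.299), against a median of 0.639. Nisch (0.205), Tet1 (0.207) and Set (0.219) were nearest to Gsr, against a median of 0.541. None of the 9 is one of the 10 enzymes. The nearest genes lie below the median by their choice, so these values describe likeness and are no test.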

How the data were processed

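The authors deposited raw counts of reads per gene without normalization, and the deposited log2 values add 1 to size-factor-scaled counts before the logarithm. Per the labels, RNA was depleted of ribosomal RNA, directional libraries were made, and the submitters' processing notes name mm10, STAR, HTSeq, FastQC, HOMER and DESeq2, without versions. Counts were analysed in R 4.3.3 with edgeR 4.0.16 (filterByExpr with a minimum count of 10, TMM, robust quasi-likelihood). The 6 pairwise comparisons came from 1 model of the 4 cohorts, and competent vs. non-competent oocytes from a model of 2 groups. Adjusted p-values are Benjamini-Hochberg values over 13943 genes. SEs were approximated from the log2 fold change and the F statistic, and 95% intervals, not adjusted for multiple testing, are normal intervals from these SEs. DESeq2 1.42.0 and limma 3.58.1 served as alternatives, with other scalings, no filter, other cohorts in the model, a replicate block, leaving out each pool and, added after seeing the data, a granulosa marker covariate and the omission of the 3 pools highest in these markers. Pools are separate samples per the labels, so p-values measure the spread between pools, and counts without molecular identifiers carry more than counting error. The study describes 3 independent pools from 3 mice in each condition, without stating how the mice were divided over the pools. Whether the spread between pools covers that between mice is therefore not known. The correlation of the deviations of same-numbered pools was at most 0.0753, so the numbers do not pair pools. Coordinates and exon lengths are from GENCODE M21. Named genes were the 10 enzymes, up to 4 called genes of each list averaging 5 CPM or more and having the largest change, and the 3 genes most like each of the 3 enzymes with the widest range. Chac1, Cth, Slc1a1 and Pgls fall outside this rule and were named after their values were seen, as were the markers and Acss2 where named. The members and lists were chosen with earlier results of these data known.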

Additional observations from a re-analysis of the deposited data

Results flagged for a closer look

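In 20 groups of 6 pools (10 genes, competent and non-competent), 2 had a lowest pool far from the others, by a gap to the next pool above Dixon's 95% critical value, where chance gives about 1 in 20. Gclm was at 45.4 CPM in PND 13 replicate 1 and at 52.6 to 56.6 CPM in the other 5 non-competent pools, a gap of 0.644 of the range. Gpx4 was at 2.14 CPM in PND 16 small replicate 3, the pool with the lowest total count, and at 4.06 to 4.65 CPM in the other 5 non-competent pools, a gap of 0.767 of the range.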

How the results depend on the processing

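When the counts of called enzymes were recomputed under each alternative, 131 stayed at their value and 23 moved. The count for PND 16 large vs. PND 13, 0 as reported, was 2 with total counts alone and 1 with the granulosa covariate, with DESeq2 and with only the compared cohorts in the model. Of the genes tested, 1858 were called there as reported, and 1966, 2057, 2170 and 1975 with these 4 settings, respectively. For PND 16 large vs. PND 16 small it went from 0 to 1 with the covariate, with DESeq2 and without the 3 pools highest in granulosa markers, where 863 genes were called as reported and 1119, 1176 and 1185 in these settings. Without the fold criterion the counts were 2 in PND 16 large vs. PND 13, 3 in PND 40 vs. PND 13, 1 in PND 16 large vs. PND 16 small, 2 in PND 40 vs. PND 16 large, 3 in PND 40 vs. PND 16 small and 1 in competent vs. non-competent oocytes, since this admits more genes. Leaving out 1 pool gave 0 to 1 enzymes in PND 16 large vs. PND 13, 0 to 2 in PND 40 vs. PND 13, 0 to 1 in PND 16 large vs. PND 16 small, 0 to 1 in PND 40 vs. PND 16 large and 0 to 1 in PND 40 vs. PND 16 small, where the count of 0 came without PND 40 replicate 3. Apart from the fold criterion and the fewer pools, the cause was not tested. The replicate number as a block left these counts at 0, 0, 0, 0, 0, 1 and 0 in the 7 comparisons and ended the pass of Prdx1 in PND 40 vs. PND 16 large (adjusted p = 0.0554) and of Sod1 in PND 16 large (0.0693) and PND 40 (0.0567) vs. PND 16 small. The number of pools and, for Cat, the low counts limit what these comparisons can show.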
